A study of Homo sapiens with 24 samples.

Results

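The messenger RNAs of 35 aminoacyl-tRNA synthetases, 19 cytosolic and 16 mitochondrial, were examined across 24 arrays of Huh7.5.1, a line of human hepatoma cells. The genes were chosen by name, with each gene read from its highest-mean probe set, and they were 35 of the 18274 genes measured. All 35 were found. VARS1 and VARS2 had 2 probe sets each. The arrays were Affymetrix Human Gene 1.0 ST arrays of cells given silymarin, a milk thistle seed extract, or the solvent DMSO. At 4 h there were 4 silymarin and 4 DMSO arrays, at 8 h there were 3 and 5, and at 24 h again 3 and 5. All titles carry the word novirus, the silymarin dose was not stated, and no genotype or other agent was named for any group. The labels do not state whether replicates are separate cultures, so p-values measure the spread between these samples. All values below are log2 expression values, and their level can be compared between arrays but not between genes.

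An aminoacyl-tRNA synthetase joins an amino acid to its matching transfer RNA, the step that supplies the ribosome with charged tRNA. Most amino acids have separate enzymes for the cytosol and for the mitochondrion, both encoded in the nucleus, and the cytosolic forms carry most of the cell's protein synthesis. GARS1 and KARS1 make both forms from a single gene, EPRS1 joins glutamate and proline, and FARSA and FARSB are the subunits of a single phenylalanine enzyme. When amino acids are short or the endoplasmic reticulum is stressed, eIF2 is phosphorylated and the transcription factor ATF4 rises. ATF4 then activates genes of amino acid supply, among them asparagine synthetase (ASNS) and many cytosolic synthetases. ATF4 binds with C/EBP partners at a composite site, the C/EBP-ATF response element.

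The core of that site, written TGATGNAA, or TTNCATCA when it lies on the opposite strand, was searched in RefSeq promoter windows (GRCh38.p14, 250 bases before to 50 after the start site). At least 1 window with the core was listed for 1217 of 27305 genes (4.46%), and 1270 of 35116 windows held it (3.62%). Of the 13 cytosolic synthetases listed as ATF4 targets, 10 had a window, and 7 of these held the core. That list was chosen with results of these data known. Of the other 6 cytosolic synthetases, all had a window and 0 held it. Of the 16 mitochondrial synthetases, 14 had a window and 1 held it. LARS1, VARS1, YARS1, AARS2 and VARS2 were not in the table. The stretches below are shown because they are the members' matches, each 30 bases long on the gene's strand with the core in capitals, and ASNS is given for comparison.
AARS1, chr16:70289675-70289704, minus strand: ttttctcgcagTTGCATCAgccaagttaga
CARS1, chr11:3057407-3057436, minus strand: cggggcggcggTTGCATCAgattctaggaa
GARS1, chr7:30594834-30594863, plus strand: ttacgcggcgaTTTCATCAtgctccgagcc
IARS1, chr9:92293692-92293721, minus strand: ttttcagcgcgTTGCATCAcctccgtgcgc
MARS1, chr12:57488053-57488082, plus strand: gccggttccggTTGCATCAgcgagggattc
NARS1, chr18:57621804-57621833, minus strand: tctacgctctcTGATGCAAcgccggaatcg
TARS1, chr5:33440956-33440985, plus strand: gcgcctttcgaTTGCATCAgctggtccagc
YARS2, chr12:32756076-32756105, minus strand: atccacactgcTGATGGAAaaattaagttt
ASNS, chr7:97872458-97872487, minus strand: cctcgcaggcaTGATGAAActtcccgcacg
The core read TTGCATCA in AARS1, CARS1, IARS1, MARS1 and TARS1, and NARS1 carries the same core on the other strand. Counting the start base as 1, the core began at positions -2 in CARS1, -4 in MARS1, 3 in TARS1 and 15 in NARS1, close to the start site. It began at -187 in AARS1, -197 in YARS2 and -68 in ASNS. A match is a run of letters, not a measured binding site.

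The labelled cell type was checked against its markers only as far as detection goes, since probe sets differ in brightness. All 9 measured hepatocyte markers, among them ALB, APOA1 and TTR, averaged at least 11.47, and array medians lay between 7.04 and 7.18. The 9 measured markers of blood, endothelial, stromal and biliary cells averaged 4.33 to 7.77. The arrays did not form 1 population. DDIT4, a stress gene that restrains mTOR, lay at 9.67 to 10.34 on 10 arrays and at 7.50 to 8.35 on the other 14. The 10 arrays came from every group: 1 of 4 silymarin and 2 of 4 DMSO arrays at 4 h, 2 of 3 and 3 of 5 at 8 h, and 1 of 3 and 1 of 5 at 24 h. ASNS was 10.49 to 11.26 on those 10 arrays and 9.33 to 10.13 on the 14. The labels do not account for this division.

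Cytosolic synthetases varied more between replicates of a group than mitochondrial ones did, and the wide spreads belonged to part of the cytosolic set. The standard deviation within groups had a median of 0.147 over the 19 cytosolic members and 0.104 over the 16 mitochondrial members, against 0.123 over all genes. The ratio was 1.41. It comes with no test, since members of a list vary together. Probe sets of the cytosolic members were also brighter, with a median level of 11.30 against 9.03 for the mitochondrial ones. RMA compresses the differences of dim probe sets, and the part of brightness in the ratio was not tested. The 13 cytosolic members listed as ATF4 targets, a list chosen with results of these data known, had a median of 0.180. Of these, 8 lay above the 75th percentile of all genes. The other 6 cytosolic members had a median of 0.0743 and none above that percentile, and 3 of the 16 mitochondrial members exceeded it. CARS1, which charges cysteine tRNA, had the widest spread of all members (0.348), and QARS1, which charges glutamine tRNA, the narrowest (0.0578). Without the 10 arrays of high DDIT4, the cytosolic median was 0.0912 and the mitochondrial 0.0916, a ratio of 0.996.

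**Figure D1:**
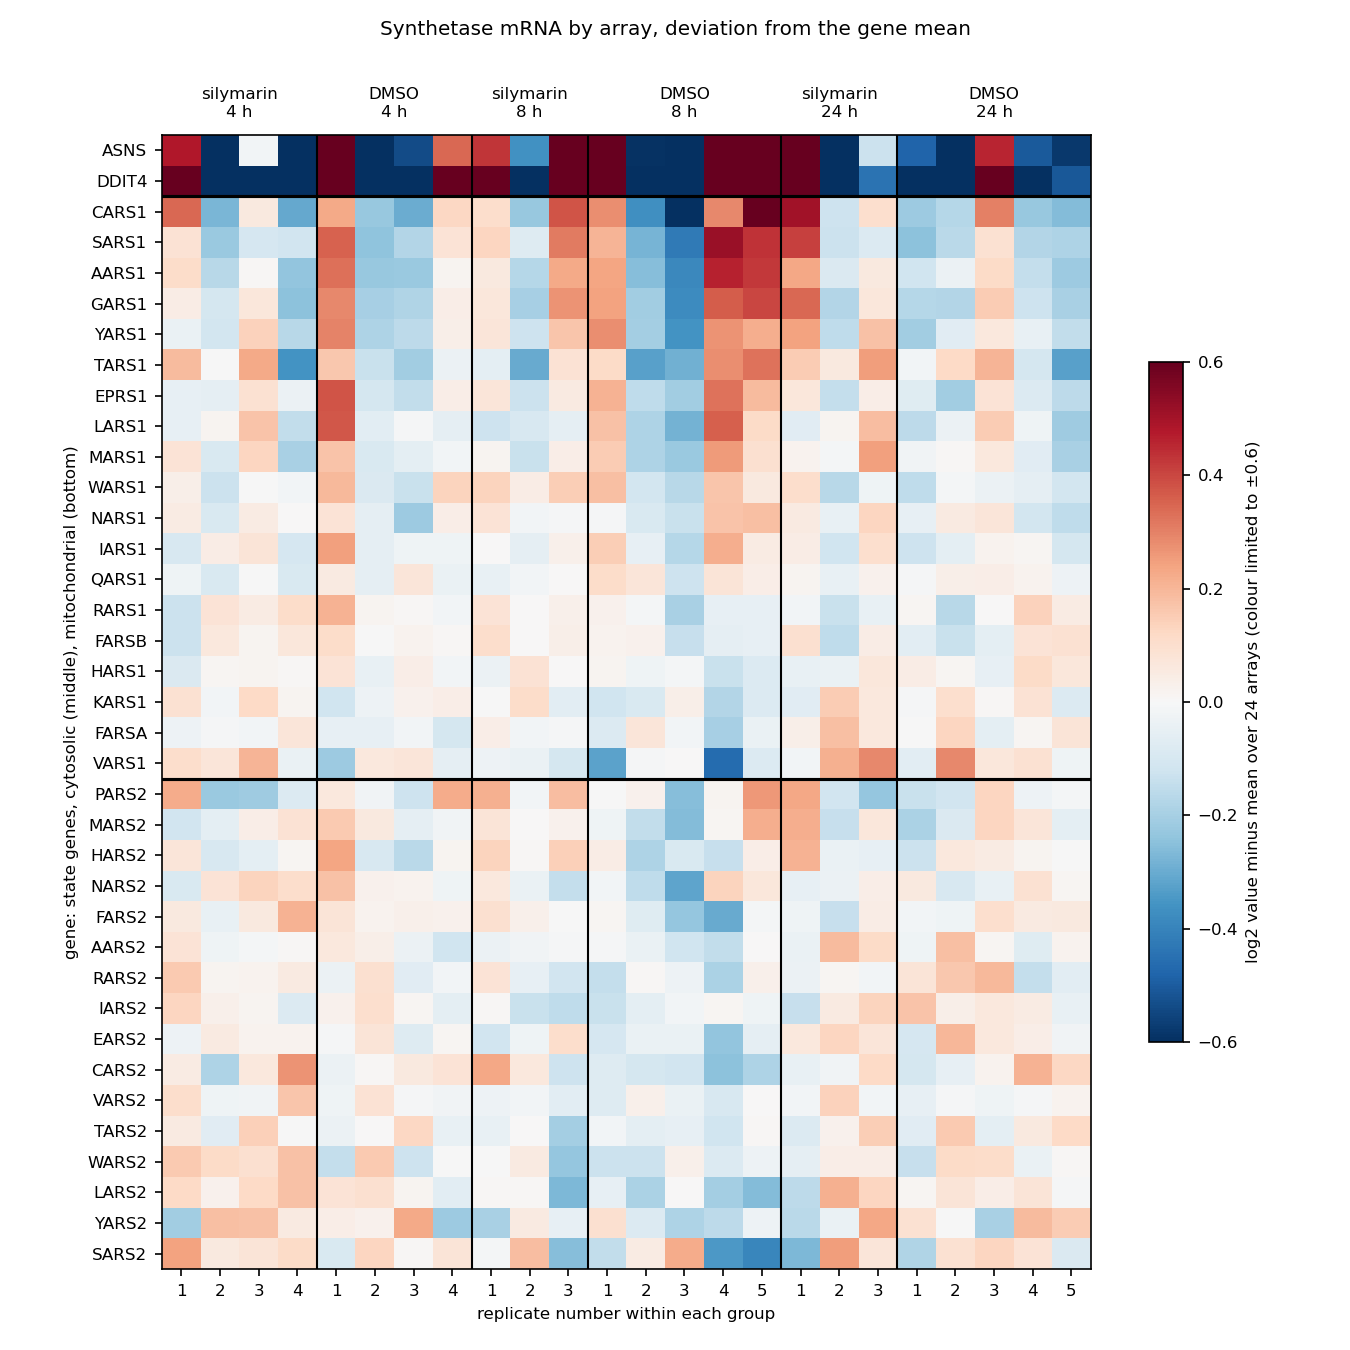
Deviation of each array's log2 value from the gene's mean over 24 arrays for ASNS, DDIT4 and the 35 members (rows) on every array (columns, by group and replicate), with colour limited to 0.6 either way. Columns with red ASNS and DDIT4 also have red upper cytosolic rows, and the lower cytosolic rows other than VARS1 and most mitochondrial rows stay pale. VARS1 ran from 9.93 to 10.50 on the 10 arrays of high DDIT4 and from 10.33 to 10.69 on the other 14.

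CARS1 differed 2.39-fold between its highest and lowest array. At 4 h it read 8.82, 8.20, 8.53 and 8.16 in silymarin replicates 1 to 4, against 8.70, 8.24, 8.17 and 8.59 in DMSO replicates 1 to 4. At 8 h it read 8.57, 8.25 and 8.85 in silymarin and 8.75, 8.10, 7.84, 8.76 and 9.10 in DMSO. At 24 h it read 8.98, 8.35 and 8.57 in silymarin and 8.25, 8.30, 8.77, 8.25 and 8.21 in DMSO. Silymarin and DMSO arrays overlapped at every time. All 10 arrays of high DDIT4 exceeded all 14 of low DDIT4, though the margin was below the second decimal.

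SARS1 loads serine onto serine tRNA and onto selenocysteine tRNA. It read 10.44, 10.13, 10.25 and 10.24 in silymarin at 4 h, against 10.70, 10.11, 10.18 and 10.43 in DMSO. At 8 h the values were 10.48, 10.27 and 10.66 in silymarin and 10.56, 10.07, 9.92, 10.87 and 10.78 in DMSO. At 24 h they were 10.76, 10.22 and 10.27 in silymarin and 10.11, 10.19, 10.44, 10.17 and 10.16 in DMSO. The treatments overlapped at each time. On the arrays of high DDIT4 SARS1 lay between 10.43 and 10.87, and on the rest between 9.92 and 10.27.

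AARS1, the alanine enzyme, was high on the same arrays. It read 12.04, 11.76, 11.94 and 11.69 in silymarin at 4 h, against 12.26, 11.70, 11.70 and 11.94 in DMSO. At 8 h the values were 11.99, 11.76 and 12.16 in silymarin and 12.16, 11.67, 11.54, 12.39 and 12.35 in DMSO, and at 24 h it was 12.16, 11.84 and 11.99 in silymarin and 11.81, 11.89, 12.04, 11.79 and 11.71 in DMSO. The treatments overlapped, and 9 of the 10 arrays of high DDIT4 exceeded every other array.

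GARS1, the glycine enzyme, read 11.97, 11.82, 12.00 and 11.68 in silymarin at 4 h, against 12.22, 11.73, 11.75 and 11.97 in DMSO. At 8 h GARS1 read 11.99, 11.73 and 12.20 in silymarin and 12.17, 11.72, 11.55, 12.29 and 12.33 in DMSO. At 24 h it read 12.27, 11.75 and 12.00 in silymarin and 11.76, 11.75, 12.08, 11.80 and 11.73 in DMSO. Its treatments overlapped as well. Of the arrays of high DDIT4, 7 of 10 lay above every other array.

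TARS1, the threonine enzyme, read 10.39, 10.20, 10.43 and 9.85 in silymarin at 4 h and 10.37, 10.07, 9.99 and 10.17 in DMSO. At 8 h TARS1 read 10.14, 9.90 and 10.29 in silymarin and 10.32, 9.88, 9.92, 10.48 and 10.53 in DMSO, and at 24 h 10.36, 10.26 and 10.46 in silymarin and 10.19, 10.32, 10.41, 10.10 and 9.88 in DMSO. The treatments overlapped at each time, and 2 of the 10 arrays of high DDIT4 exceeded every other array.

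Among mitochondrial enzymes the widest spreads belonged to SARS2, PARS2 and YARS2. SARS2, the mitochondrial serine enzyme, read 9.58, 9.40, 9.42 and 9.45 in silymarin at 4 h and 9.25, 9.47, 9.34 and 9.42 in DMSO. At 8 h SARS2 read 9.33, 9.52 and 9.09 in silymarin and 9.19, 9.39, 9.56, 8.99 and 8.94 in DMSO, and at 24 h 9.07, 9.59 and 9.41 in silymarin and 9.16, 9.43, 9.47, 9.42 and 9.25 in DMSO. Its lowest arrays, DMSO replicates 5 and 4 at 8 h and silymarin replicate 1 at 24 h, were arrays of high ASNS. So was silymarin replicate 1 at 4 h, where SARS2 read 9.58. SARS2 ran from 8.94 to 9.58 on the 10 arrays of high DDIT4 and from 9.16 to 9.59 on the other 14. PARS2, the mitochondrial proline enzyme, read 9.73, 9.28, 9.29 and 9.42 in silymarin at 4 h and 9.57, 9.49, 9.38 and 9.73 in DMSO. At 8 h PARS2 read 9.72, 9.49 and 9.69 in silymarin and 9.50, 9.53, 9.25, 9.52 and 9.77 in DMSO, and at 24 h 9.74, 9.39 and 9.28 in silymarin and 9.37, 9.39, 9.63, 9.47 and 9.50 in DMSO. For PARS2, 8 of the 10 arrays of high DDIT4 exceeded every other array. YARS2, the mitochondrial tyrosine enzyme, read 8.47, 8.86, 8.85 and 8.73 in silymarin at 4 h and 8.72, 8.70, 8.90 and 8.46 in DMSO. At 8 h YARS2 read 8.48, 8.73 and 8.63 in silymarin and 8.77, 8.60, 8.49, 8.52 and 8.65 in DMSO, and at 24 h 8.52, 8.64 and 8.91 in silymarin and 8.77, 8.67, 8.48, 8.87 and 8.83 in DMSO. The treatments overlapped in all these mitochondrial enzymes.

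**Figure D2:**
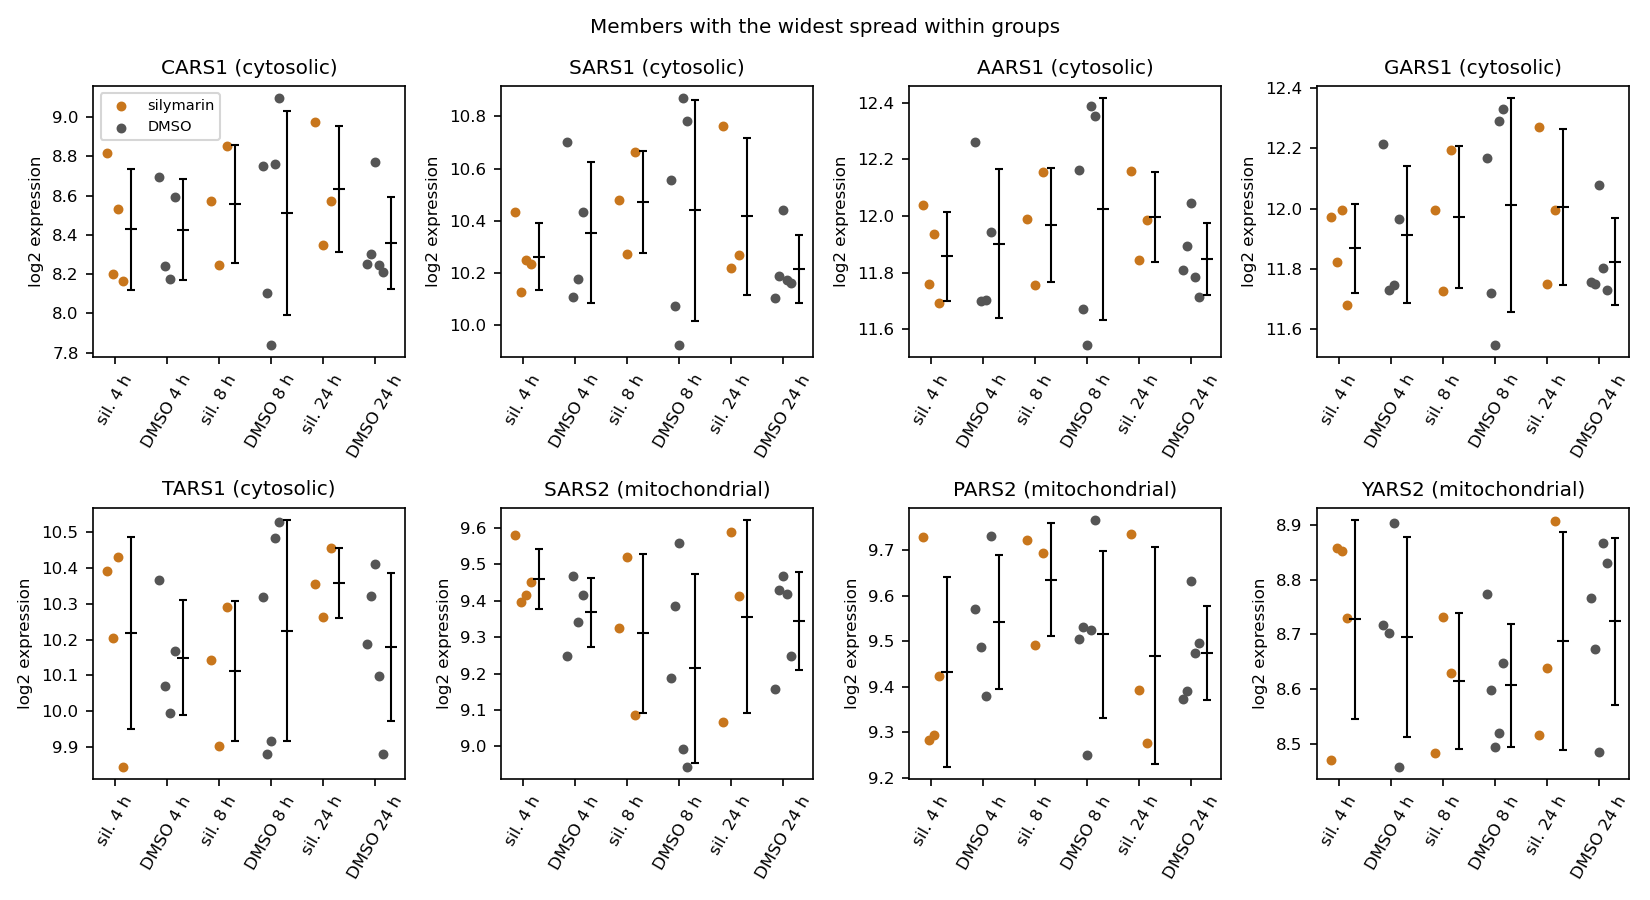
Log2 expression on each array (points) of the 5 cytosolic and 3 mitochondrial members with the widest spread, by treatment and time, with group mean and SD beside the points. Silymarin and DMSO points overlap in every panel and at every time, and in CARS1 the highest points of a group stand well above its lowest.

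The slope on ASNS asked which synthetases moved with ASNS, a gene of the ATF4 response, between arrays. ASNS was chosen with earlier results of these data known. The slope is the change of a member, in log2 units, per log2 unit of ASNS between replicates of the same group, tested with limma over 18273 genes. Of all genes, 8.94% had a called positive slope and 8.33% a called negative one at an adjusted p under 0.05. Of the 19 cytosolic members, 12 had a called positive slope and 1 a called negative slope, and 6 were not called. Of the 16 mitochondrial members, 3 were called positive, 1 was called negative and 12 were not called. The median slope was 0.15 in cytosolic members and -0.02 in mitochondrial members, against -0.02 over all genes. Positive slopes numbered 15 of 19 in cytosolic and 5 of 16 in mitochondrial members, against 39.8% of all genes.

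The steepest cytosolic slopes were those of CARS1 (0.47, SE 0.04, limma adjusted p = 8.14e-09), SARS1 (0.37, SE 0.03, limma adjusted p = 3.42e-08), AARS1 (0.33, SE 0.03, limma adjusted p = 6.42e-08) and GARS1 (0.33, SE 0.03, limma adjusted p = 1.17e-08). They stood at ranks 8, 10, 11 and 9 among all genes by the size of the positive t. After ASNS was taken into account, 6.22% of the variance of GARS1 within groups was left, and 8.59% of that of CARS1. YARS1, the tyrosine enzyme, and TARS1 each had a slope of 0.26. EPRS1 had 0.21, LARS1, the leucine enzyme, 0.17, MARS1, the methionine enzyme, 0.16, and WARS1, the tryptophan enzyme, 0.15. NARS1, for asparagine, and IARS1, for isoleucine, had 0.11 each. These 12 are all on the list of ATF4 targets, a list chosen with results of these data known. The IARS1 call was lost without DMSO replicate 3 at 8 h (limma adjusted p = 0.0634).

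VARS1, the valine enzyme, was on that list too, and its slope was negative, at -0.12 (SE 0.04, limma adjusted p = 0.0394). That call was lost when any of 9 arrays was left out, namely silymarin replicate 1 or 2 at 24 h, DMSO replicate 1, 2 or 3 at 4 h, or DMSO replicate 1, 2, 3 or 4 at 8 h. Its adjusted p ranged between 0.0193 and 0.111 as single arrays were left out. The 6 cytosolic members outside the list were not called. Their slopes were 0.04 for QARS1 and RARS1, 0.02 for FARSB, -0.03 for HARS1, -0.06 for KARS1 and -0.06 for FARSA. These enzymes charge glutamine, arginine, phenylalanine, histidine and lysine tRNA.

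**Figure D3:**
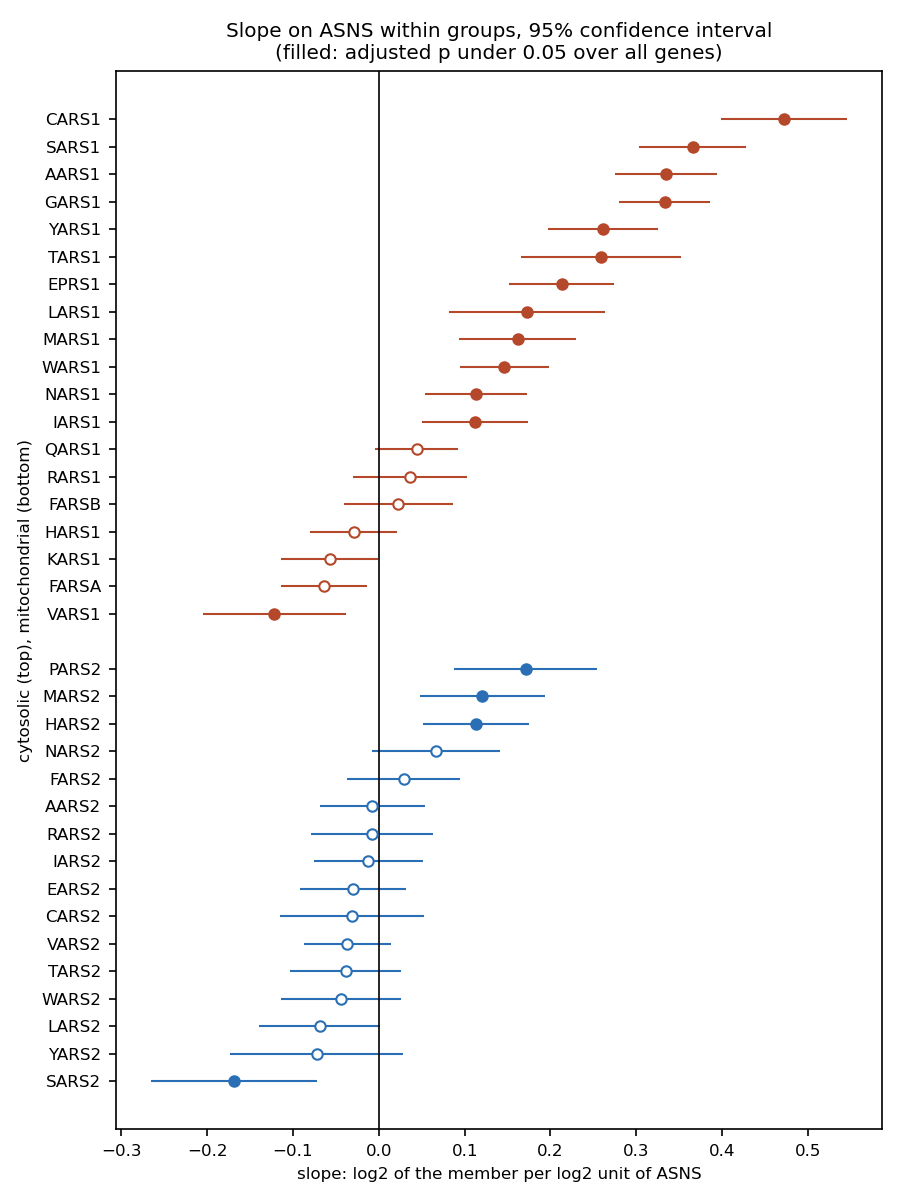
Slope of each member on ASNS within groups, in log2 units per log2 unit of ASNS, with its 95% confidence interval, for cytosolic (top) and mitochondrial (bottom) members; filled points had an adjusted p under 0.05. The cytosolic slopes run between -0.12 and 0.47, and the mitochondrial slopes lie between -0.17 and 0.17.

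The mitochondrial slopes with a call were PARS2 (0.17, SE 0.04, limma adjusted p = 0.00507), MARS2 (0.12, SE 0.04, limma adjusted p = 0.0204), HARS2 (0.11, SE 0.03, limma adjusted p = 0.0116) and SARS2 (-0.17, SE 0.05, limma adjusted p = 0.0149). MARS2 and HARS2 are the mitochondrial methionine and histidine enzymes. The SARS2 call was lost without DMSO replicate 3 at 8 h (limma adjusted p = 0.0801), and the MARS2 call without that array (0.0875) or without silymarin replicate 1 at 24 h (0.0546). The other 12 ran between -0.07 for YARS2 and 0.07 for NARS2.

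Enzymes for the same amino acid were then set against each other. For 16 pairs, the cytosolic minus the mitochondrial log2 value on each array was added to the table of genes and its slope on ASNS was tested. In 9 pairs the cytosolic slope was called higher, in 2 the mitochondrial slope was, and 5 pairs were not called. How often the difference of unselected genes would be called was not computed, and of single genes 8.94% were called positive and 8.33% negative. Paired probe sets differ in brightness, and the part of that in the pair differences was not tested. The serine pair differed most, by 0.53 (95% interval 0.41 to 0.66, limma adjusted p = 5.19e-06), with a slope of 0.37 for SARS1 and -0.17 for SARS2. The cysteine pair CARS1 and CARS2 differed by 0.50, and the alanine pair AARS1 and AARS2 by 0.34. The tyrosine pair differed by 0.33 and the threonine pair by 0.30. The other pairs with the higher cytosolic slope were glutamate (0.24), leucine (0.24), tryptophan (0.19) and isoleucine (0.12).

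Over all arrays the histidine pair ran the other way, with a slope of -0.03 for HARS1 and 0.11 for HARS2. The difference was -0.14 (SE 0.03, limma adjusted p = 0.00335). FARSA and FARS2, for phenylalanine, differed by -0.09 (limma adjusted p = 0.0350). FARSB, the other subunit of the cytosolic enzyme, was not paired, and its slope was 0.02 against 0.03 for FARS2. For the methionine pair, the difference of 0.04 had a 95% interval of -0.06 to 0.14, and for asparagine 0.05 with an interval of -0.03 to 0.13. EPRS1 and PARS2, for proline, differed by 0.04 (interval -0.08 to 0.16), RARS1 and RARS2 by 0.04 (-0.06 to 0.15), and VARS1 and VARS2 by -0.09 (-0.17 to 0.00). Not all pairs ran alike within the 10 arrays of high DDIT4 and within the other 14. HARS1 and HARS2 had slopes of -0.01 and -0.04 within the 10, and 0.10 and 0.02 within the 14. EPRS1 and PARS2 had 0.38 and -0.16, then 0.32 and -0.09. SARS1 and SARS2 kept their direction, with 0.51 and -0.61, then 0.28 and -0.09. Pair differences were not tested within these sets.

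The 10 arrays of high DDIT4 also had the 10 highest ASNS values, so slopes were taken within each set as well, without group means. Among the 10 arrays, 2.69% of genes were called, and so were AARS1 (0.51), SARS1 (0.51), GARS1 (0.44) and SARS2 (-0.61). Slopes were positive in 15 of 19 cytosolic and in 3 of 16 mitochondrial members, against 57.4% of all genes. With DDIT4 in place of ASNS on the same arrays, slopes were positive in 6 of 19 cytosolic and 7 of 16 mitochondrial members, against 48.3% of all genes, and 0 genes were called (1262 at an unadjusted p under 0.05). Among the 14 arrays, limma called 0 genes, with 2286 genes and 10 cytosolic members at an unadjusted p under 0.05. There, 18 of 19 cytosolic and 10 of 16 mitochondrial slopes were positive, against 45.4% of all genes. In the 14 arrays, 13 of 13 members listed as ATF4 targets had positive slopes, VARS1 among them (0.19). Several of these relations rested on the 2 arrays farthest from that set's ASNS median. Without them, Pearson's r with ASNS was 0.356 for AARS1, against 0.715 with them, 0.239 for LARS1, against 0.720, and 0.199 for MARS1, against 0.740. TARS1 had -0.123, against 0.547. The permutation p without them was 0.252 for AARS1, 0.455 for LARS1, 0.542 for MARS1 and 0.706 for TARS1.

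The mitochondrial calls did not all keep their sign within the sets. PARS2 had slopes of -0.16 among the 10 arrays and -0.09 among the 14, and HARS2 had -0.04 and 0.02. SARS2 was negative in both (-0.61 and -0.09). YARS2 was negative over all arrays (-0.07) but positive within each set (0.26 and 0.35). None of the slopes within sets of PARS2, HARS2 and YARS2 was called.

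Correlations with ASNS were computed for 13 members in 6 ways, 78 for each measure, and the adjusted test of each relation is the limma slope. With group means removed, GARS1 had Pearson's r = 0.968 and Spearman's rho = 0.957 over 24 arrays, and CARS1 had r = 0.956 and rho = 0.942. The permutation p was 1e-05 for each, the smallest that the 100000 permutations can give. Without the 2 arrays farthest from the ASNS median, r was 0.963 for GARS1 and 0.965 for CARS1. Within the 10 arrays of high DDIT4, AARS1 had r = 0.970 and rho = 0.988 (permutation p = 1e-05 for each), and CARS1 had r = 0.510 and rho = 0.406 (permutation p = 0.137 and 0.247). Within the other 14, CARS1 had r = 0.800 and rho = 0.473 (permutation p = 0.000720 and 0.0900). Without the 2 arrays farthest from that set's median, the r of CARS1 was 0.503 and the rho 0.168 (permutation p = 0.113 and 0.602), so the relation within the 14 arrays rested on those arrays.

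SARS2 had r = -0.638 and rho = -0.583 over 24 arrays (permutation p = 0.00969 and 0.0156), and r = -0.516 without the 2 farthest arrays. Within the 10 arrays its r was -0.814 and rho -0.770 (permutation p = 0.00665 and 0.0129). Within the 14 it was -0.178 and -0.442 (permutation p = 0.540 and 0.117). PARS2 had r = 0.709 and rho = 0.674 over all arrays (permutation p = 0.000680 and 0.00189), and r = 0.691 without the 2 farthest. The sign of r for PARS2 was negative within each set, at -0.472 within the 10 arrays and -0.213 within the 14 (permutation p = 0.166 and 0.470). YARS2 had r = -0.321 and rho = -0.238 over all arrays (permutation p = 0.162 and 0.320), and r = 0.655 within the 10 arrays and 0.613 within the 14 (permutation p = 0.0436 and 0.0187).

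**Figure D4:**
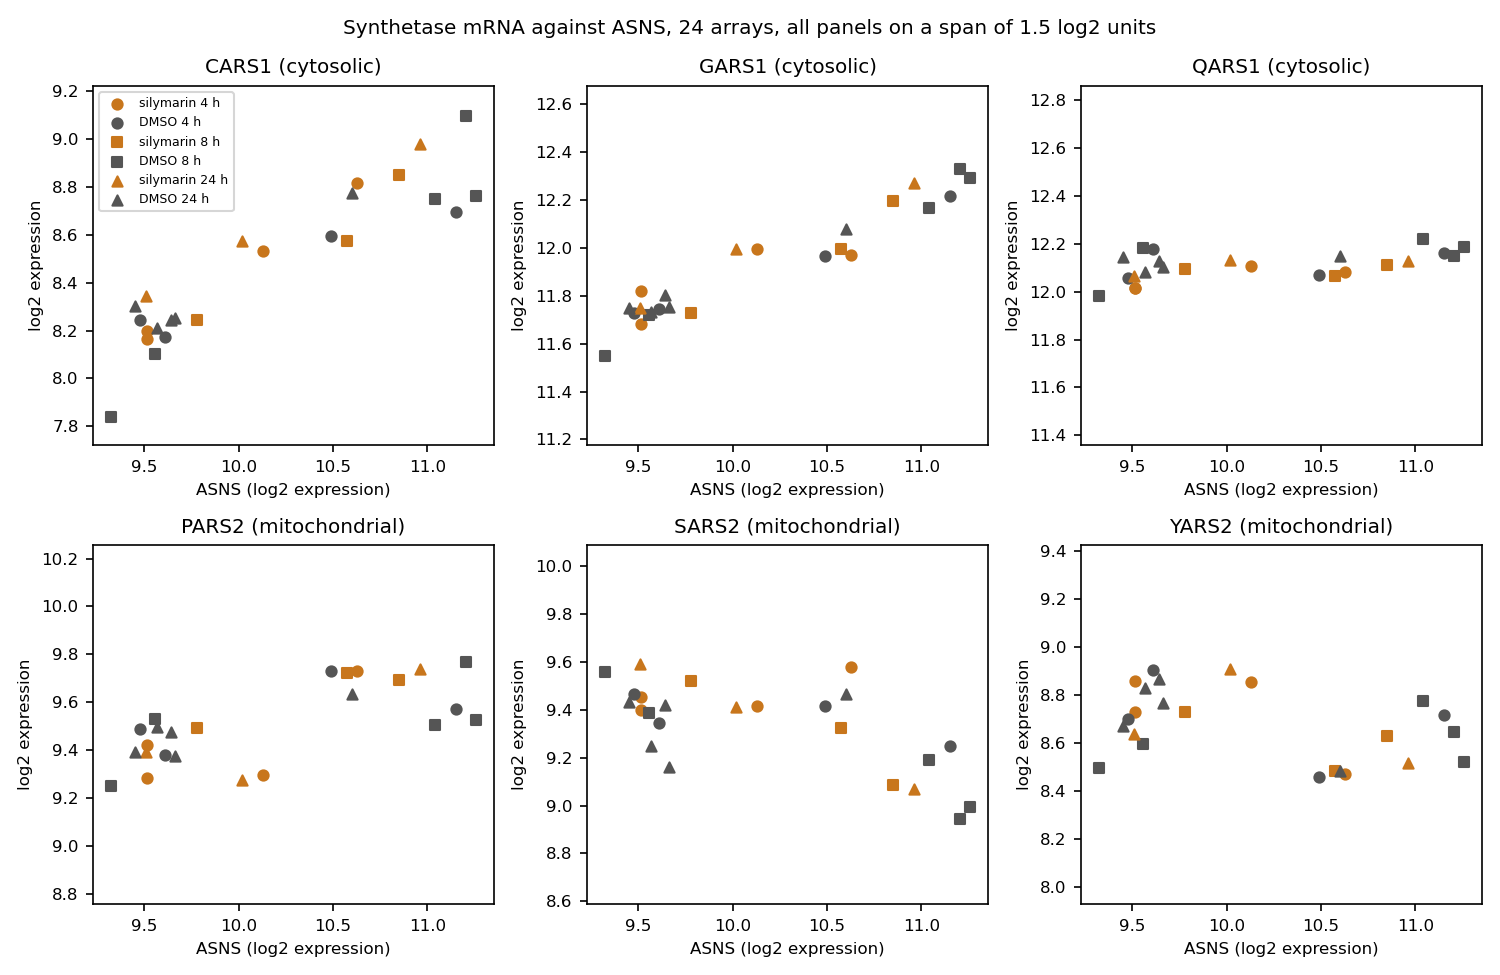
Log2 expression of 3 cytosolic (CARS1, GARS1, QARS1) and 3 mitochondrial members (PARS2, SARS2, YARS2) against ASNS, 1 point per array, with colour for treatment and shape for time; every panel spans 1.5 log2 units. CARS1 and GARS1 climb with ASNS, QARS1 is nearly flat with a slope of 0.04, SARS2 declines, and PARS2 stands higher where ASNS is above 10.49.

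Silymarin was compared with DMSO at each time. No synthetase passed the test. Limma called 0 of 18274 genes at 4 h, at 8 h and at 24 h (0% at each time), with 453, 719 and 553 genes at an unadjusted p under 0.05. Among members, 1, 2 and 0 reached that unadjusted level, against 2.48%, 3.93% and 3.03% of all genes. No member's silymarin arrays lay entirely above or below the DMSO arrays at any time. Of all genes, the silymarin arrays lay entirely above in 0.629%, 0.947% and 1.18% and entirely below in 1.55%, 1.99% and 0.772%. Median differences were also taken without the 10 arrays of high DDIT4. At 4, 8 and 24 h they were 0.06, 0.09 and 0.09 in cytosolic and 0.02, 0.10 and 0.03 in mitochondrial members. Those 10 include 2 of 3 silymarin and 3 of 5 DMSO arrays at 8 h, which leaves too few there for a test.

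At 4 h the median difference was -0.03 in cytosolic members, 6 of 19 above 0, and 0.02 in mitochondrial members, 13 of 16 above 0, against 47.5% of all genes. The cytosolic median was 0.04 without DMSO replicate 1 and -0.06 without silymarin replicate 3. WARS2, the mitochondrial tryptophan enzyme, read 9.52, 9.47, 9.45 and 9.53 in silymarin, against 9.21, 9.51, 9.23 and 9.36 in DMSO. It averaged 9.49 ± 0.04 and 9.33 ± 0.14 (SD, n = 4 each), a difference of 0.17 (SE 0.07, limma adjusted p = 0.99993). A single DMSO array lay within the silymarin range. QARS1, with the most negative t, read 12.08, 12.02, 12.11 and 12.02 in silymarin and 12.16, 12.06, 12.18 and 12.07 in DMSO, a difference of -0.06 (SE 0.05, limma adjusted p = 0.99993), and its groups overlapped. The difference was -0.04 without DMSO replicate 3.

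At 8 h the median difference was -0.003 in cytosolic members, 9 of 19 above 0, and 0.05 in mitochondrial members, 13 of 16 above 0, against 42% of all genes. FARS2, the mitochondrial phenylalanine enzyme, read 8.98, 8.91 and 8.88 in silymarin and 8.89, 8.81, 8.65, 8.58 and 8.87 in DMSO. The difference was 0.16 (SE 0.07, limma adjusted p = 0.991), and DMSO replicate 1 reached into the silymarin range. CARS2, the mitochondrial cysteine enzyme, differed by 0.20 (SE 0.09, limma adjusted p = 0.991). LARS1 read 10.18, 10.21 and 10.25 in silymarin and 10.48, 10.12, 10.02, 10.66 and 10.42 in DMSO, a difference of -0.13 (SE 0.12, limma adjusted p = 0.991). Without the 10 arrays of high DDIT4, which include 2 of these 3 silymarin arrays, the LARS1 difference was 0.14. It was -0.05 without DMSO replicate 4 and -0.21 without DMSO replicate 3. Without silymarin replicate 2 the cytosolic median was 0.05 and the mitochondrial 0.03, and without silymarin replicate 3 they were -0.06 and 0.08.

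At 24 h the cytosolic median was 0.08, with 16 of 19 above 0, and the mitochondrial median -0.004, with 7 of 16 above 0, against 56% of all genes and a median of 0.01. The cytosolic median was 0.04 without silymarin replicate 3. All 13 members listed as ATF4 targets lay above 0, with a median of 0.13. These members vary together, and on the 24 h arrays DDIT4 was high on 1 of 3 silymarin and 1 of 5 DMSO arrays. CARS1 differed by 0.28 (SE 0.23, limma adjusted p = 0.99971), and by 0.10 (SE 0.08) once ASNS was in the fit. ASNS was itself measured after treatment and varies with CARS1 within groups, and its part in the CARS1 difference was not tested. MARS1 read 11.52, 11.49 and 11.74 in silymarin and 11.47, 11.50, 11.56, 11.43 and 11.30 in DMSO, a difference of 0.13 (SE 0.10, limma adjusted p = 0.99971), which was 0.05 without silymarin replicate 3. FARS2 read 8.86, 8.74 and 8.93 in silymarin and 8.86, 8.86, 8.98, 8.94 and 8.94 in DMSO, a difference of -0.07 (SE 0.07), which was -0.02 without silymarin replicate 2 and -0.12 without silymarin replicate 3. Both sets of groups overlapped.

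**Figure D5:**
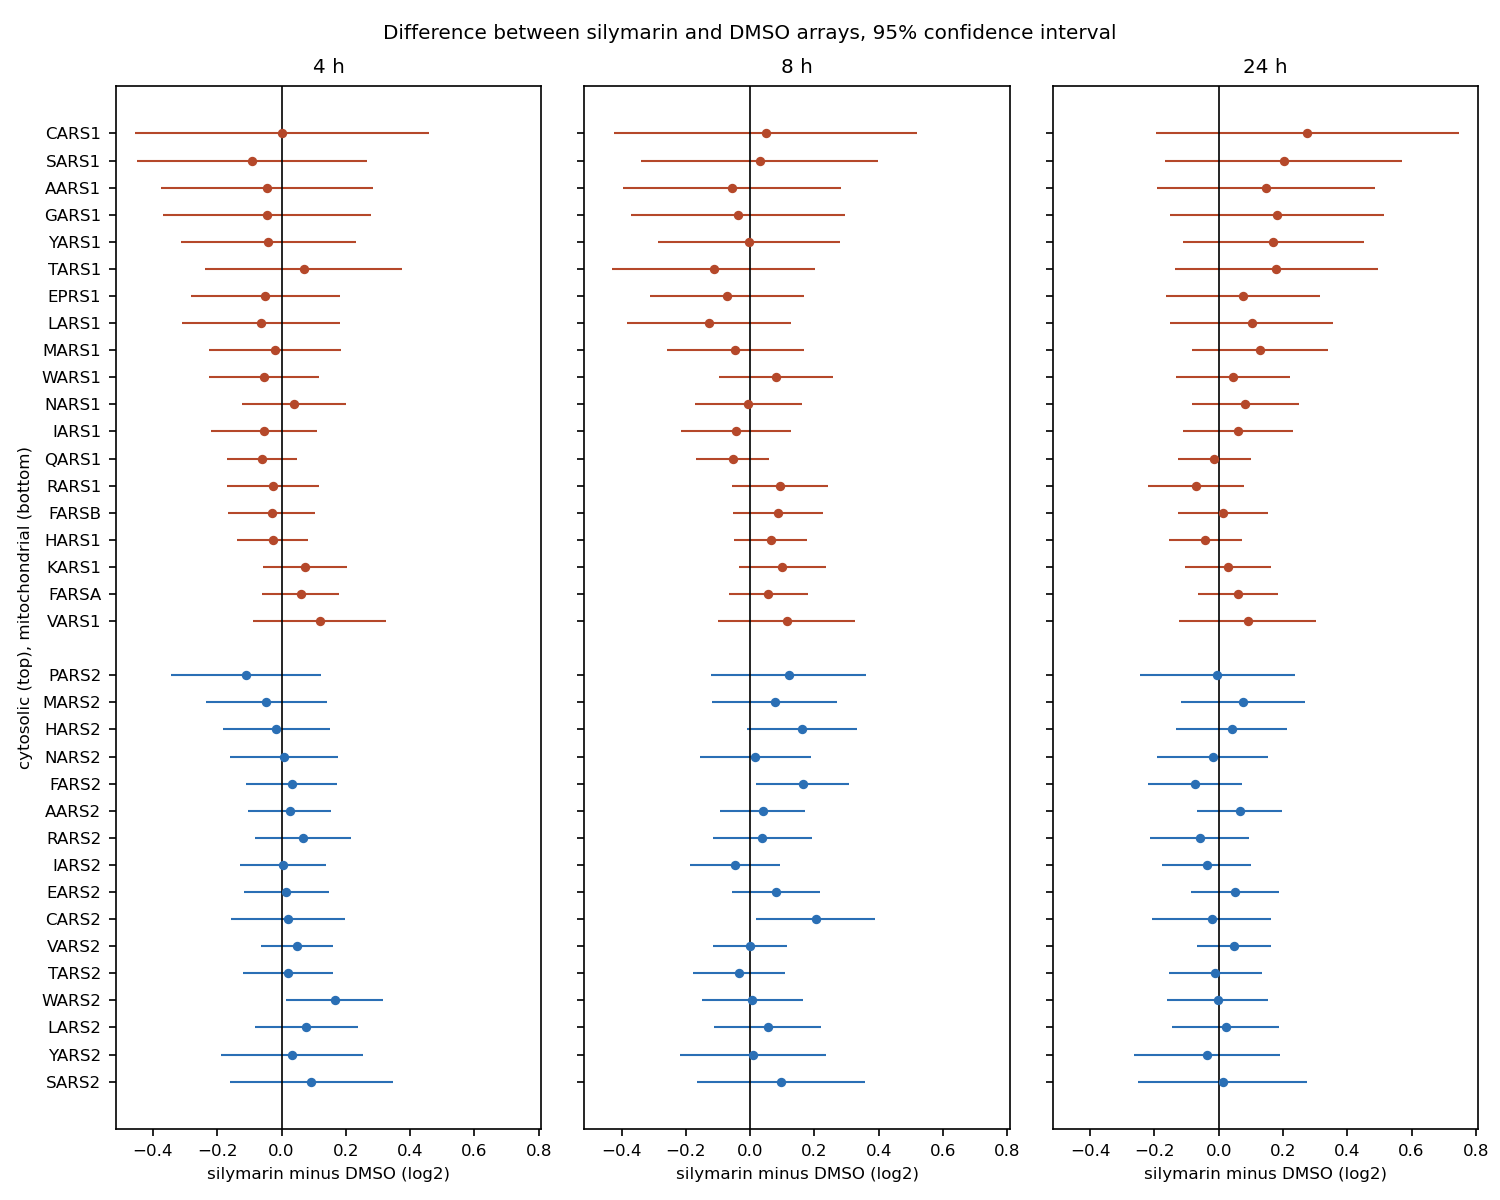
Difference between silymarin and DMSO arrays (log2) for each member at 4, 8 and 24 h with its 95% confidence interval, cytosolic members on top and mitochondrial members below. The points lie between -0.13 and 0.28, and the widest interval, that of CARS1, has an SE of 0.22 at 4 h and 0.23 at 8 h and 24 h.

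The change of the silymarin difference between times was tested as an interaction. Limma called 0 genes for 8 h minus 4 h, 24 h minus 8 h and 24 h minus 4 h (0% each), with 433, 746 and 551 genes (2.37%, 4.08% and 3.02%) at an unadjusted p under 0.05. Of the members, 0, 1 and 0 reached that level. For 8 h minus 4 h, 11 of 19 cytosolic and 9 of 16 mitochondrial members lay above 0, against 47.1% of all genes. For 24 h minus 4 h, 14 of 19 and 5 of 16 did, against 54.9%. For 24 h minus 8 h, the median was 0.10 in cytosolic members (13 of 19 above 0) and -0.03 in mitochondrial members (4 of 16 above 0), against 59.3% of all genes above 0. An F-test over the 6 groups called 0 genes (0%), and 7.2% of genes had an unadjusted p under 0.05.

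Time in DMSO was compared next. At 8 h against 4 h, the mitochondrial enzymes had the lower means. All 16 had a lower mean at 8 h, with a median of -0.07, and all 10 mitochondrial tRNA charging partners did too, with a median of -0.07. Of the 19 cytosolic members, 12 had a higher mean, with a median of 0.02. Over all genes, 53.5% had a higher mean. Other lists moved in the same comparison. The ATF4 response genes had a higher mean in 21 of 22, with a median of 0.12, the hepatocyte markers a lower mean in 7 of 9 and the markers of other cell types a higher mean in 8 of 9, and their part in the mitochondrial difference was not tested. Limma called 0 genes (0%, with 1188, or 6.5%, at an unadjusted p under 0.05), so no single enzyme passed, and 3 mitochondrial members reached the unadjusted level. CARS2 read 9.87, 9.84, 9.83, 9.70 and 9.77 at 8 h, against 9.91, 9.96, 10.01 and 10.03 at 4 h, a difference of -0.17 (SE 0.08, limma adjusted p = 0.739). FARS2 read 8.89, 8.81, 8.65, 8.58 and 8.87 at 8 h, against 8.96, 8.90, 8.91 and 8.91 at 4 h, a difference of -0.16 (SE 0.07, limma adjusted p = 0.739). In both enzymes every 8 h array lay below every 4 h array, which 0.826% of all genes did. LARS2, the mitochondrial leucine enzyme, averaged 8.93 ± 0.11 (SD, n = 5) at 8 h and 9.10 ± 0.07 (SD, n = 4) at 4 h, a difference of -0.17 with limma adjusted p = 0.739.

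The same DMSO 4 h arrays also serve as the baseline for 24 h. At 24 h against 4 h, limma called 0 genes (0%, with 310, or 1.7%, at an unadjusted p under 0.05). No member reached that level or had groups that did not overlap. Of all genes, the 24 h arrays lay entirely above the 4 h arrays in 0.399% and entirely below in 0.246%. The mitochondrial median was 0.01, with 9 of 16 above 0, and the cytosolic median -0.05, with 7 of 19 above 0, against 55.1% of all genes. The CARS2 and FARS2 values at 8 h in DMSO are also the ones set against silymarin at 8 h, so these differences share those arrays. DDIT4 was high on 3 of 5 DMSO arrays at 8 h, on 2 of 4 at 4 h and on 1 of 5 at 24 h, and the part of that division in these time differences was not tested.

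Related gene lists are set beside the same shares of all genes called, 8.94% positive and 8.33% negative. Of the 21 other ATF4 amino acid response genes, 18 had a called positive slope, with SLC7A11, the cystine transporter, at 1.05, MTHFD2, a mitochondrial folate enzyme, at 0.74 and ATF4 itself at 0.37. PSPH, SLC38A2 and ATF5 were not called. Of the 7 enzymes of the multisynthetase complex, a cytosolic assembly of synthetases, 4 were called positive and 3 were not, and its scaffold AIMP1 had a slope of 0.03 and was not called. By structural class, 7 of 10 class I cytosolic enzymes were called positive and 1 negative, and 5 of 9 class II enzymes positive. Of 9 genes of tRNA handling, XPOT, the tRNA exporter, had a slope of 0.12 and SEPSECS, which completes selenocysteine on its tRNA, 0.19, and ELAC2, which trims tRNA 3′ ends, had -0.10, all called. Of 10 mitochondrial tRNA charging partners, MTFMT, which formylates the initiator methionyl-tRNA, had 0.17 and GATB, of the glutaminyl-tRNA amidotransferase, 0.10. These were the 2 called, both positive, against 8.94% of all genes called positive.

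WARS1 is also known as an interferon-gamma response gene. Of the 8 measured genes of that list, WARS1 alone was called positive, and CXCL10 (-1.31) and GBP2 (-0.48) were called negative. The interferon-gamma genes and WARS1 had opposite signs against ASNS where called. Of 9 hepatocyte markers, TTR was called, with a slope of -0.15, and of the 9 markers of other cell types, PECAM1 was called, with -0.30. A single call in 9 is near the share over all genes. The part of these genes in the synthetase slopes was not tested.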

How the data were processed

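Total RNA of 24 samples was measured on 1 array each, per the labels. The values are on the log2 scale as deposited by the authors, who used RMA in oligo, going by the submitters' processing notes (no version is named). The build behind the probe annotation is not given in the sources used here. RMA fits the arrays together, which compresses the differences of dim probe sets. Of 28869 probe sets, 19302 had 1 gene symbol, 1729 had several and 7838 were not listed in the platform annotation. The highest-mean probe set was kept for each of 18274 genes (757 had several). Symbols looked up by gene number changed in 0 cases, and 31 were not in the reference table. All value columns were mapped to samples (0 left out). On arrays, the number of samples limits the precision.

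A limma model of the 6 group means was fitted to all genes (limma 3.58.1, R 4.3.3, 18 residual and 5.04 prior degrees of freedom), two-sided, with Benjamini-Hochberg adjustment over all genes and a threshold of 0.05. The slope added ASNS as a covariate. The differences of 16 enzyme pairs were added rows of that table, an addition made after seeing the data. Permutations (100000) were made within groups for the pooled correlations. Figures used matplotlib 3.10.9 and Python 3.11.15. Scripts were tested on simulated data.

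The 35 members, the gene lists and ASNS as the covariate were chosen with earlier results of these data known. Members given by array are the 5 cytosolic and 3 mitochondrial ones with the largest SD within groups, and, in each silymarin comparison, those with the largest positive and negative moderated t. Genes named beyond this rule were chosen after their values were seen. Some entries of the lists are not reported here. Replicate numbers are shared by the treatments. The correlation of deviations of same-numbered silymarin and DMSO arrays lay between -0.137 and 0.426 over the pairs, so they were not used as a block. Alternatives covered scaling, dim genes, probe sets, the variance model, array weights, the replicate block and single arrays left out.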

Additional observations from a re-analysis of the deposited data

Results flagged for a closer look

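In groups of 4 or 5 arrays, an array was singled out where its gap to the nearest other array was a large share of the group's range (Dixon's test at the 95% level). It was applied to 60 combinations of gene and group, of which 7 were singled out, and chance gives about 1 in 20. DMSO at 24 h accounted for 5 of them, all on replicate 3. There CARS1 was 8.77, with the others between 8.21 and 8.30, SARS1 was 10.44, with the others between 10.11 and 10.19, and GARS1 was 12.08, with the others between 11.73 and 11.80. On the same array ASNS was 10.60, with the others between 9.45 and 9.66, and DDIT4 was 10.30, with the others between 7.52 and 8.28. LARS1 was 10.68 on DMSO replicate 1 at 4 h, with the others between 10.24 and 10.30. DDIT4 was 10.34 on silymarin replicate 1 at 4 h, with the others between 7.60 and 8.05.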

How the results depend on the processing

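Of the results that answer a comparison, 963 recomputed values kept their side of the threshold or stayed within 1.5 times the count, and 20 did not. Of the other recomputed values, such as slopes of single members, 1424 stayed the same and 64 lost their call. A further 29 turned their sign and 6 moved by more than their spread. No silymarin, interaction, DMSO time or F comparison called a synthetase under any setting. The setting without the 10 arrays of high DDIT4 is left out of that statement, since it drops 2 of 3 silymarin arrays at 8 h. At 24 h, 1 gene in all was called after repeated quantile normalization, and 0 to 1 as arrays were left out. The slope on ASNS called 3156 genes, 849 with the replicate block, 492 within the 10 arrays of high DDIT4 and 0 within the other 14; as arrays were left out the count ran between 2050 (without DMSO replicate 3 at 8 h) and 3315. Same-numbered arrays share only a number, so the replicate block is a check of the fit alone. Cytosolic members called positive numbered 12, 11 with the replicate block, 3 within the 10 arrays and 0 within the 14, and 11 to 12 as arrays were left out. Mitochondrial members called positive numbered 3, 0 with the block and within either set, and 2 to 3 as arrays were left out. With DDIT4 in place of ASNS, limma called 0 genes within the 10 arrays and 1 within the 14, with 0 members in either set and 1262 and 720 genes at an unadjusted p under 0.05. The ratio of spreads was 1.41, 0.996 without the 10 arrays and 1.25 to 1.55 as arrays were left out.

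Several slopes turned their sign. With DDIT4 in place of ASNS within the 10 arrays, they were AARS1 -0.085, EPRS1 -0.29, GARS1 -0.10, IARS1 -0.25, LARS1 -0.25, MARS1 -0.069, SARS1 -0.049, WARS1 -0.21, YARS1 -0.29, QARS1 -0.089, HARS2 -0.17, MARS2 -0.034, FARS2 -0.11, VARS1 0.33, SARS2 0.16 and WARS2 0.32. With DDIT4 within the 14 arrays, they were VARS1 0.21, PARS2 -0.012, YARS2 0.074 and WARS2 0.0048. With ASNS within the 10 arrays they were HARS2 -0.043, PARS2 -0.16, YARS2 0.26 and FARS2 -0.24, and within the 14 VARS1 0.19, PARS2 -0.090 and YARS2 0.35. FARS2 was -0.0053 with the replicate block. The LARS1 difference at 8 h was 0.14 without the 10 arrays, which include 2 of 3 silymarin arrays of that time. The block also took the call from IARS1, VARS1, HARS2, MARS2, PARS2 and SARS2. The cause of these changes was not tested. A difference far below the SE of a member, such as 0.23 for CARS1 at 8 h, was not detectable with these arrays. Differences above their SE could be missed too. The largest mitochondrial silymarin difference at 8 h was 0.20, above its SE, and it was not called. The absence of calls leaves differences of that size undecided.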
